A study of Mus musculus with 32 samples.

Results

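The peaks described here lie outside every annotated gene but close to one. A peak was a member when its summit, the deposited point of highest enrichment, fell in no gene body of the mm10 gene table and at most 10 kb from the nearest one. By this rule 28401 of 496760 peaks in 16 lists were members, 452649 peaks had their summit in a gene body and 15710 lay farther than 10 kb from any gene. Merged by strand across the 16 lists, the members formed 5980 regions next to 3915 genes. The rule used position alone and no enrichment value.

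The series profiled N6-methyladenosine (m6A) in mouse embryonic stem cells of C57BL/6 background by MeRIP-seq, in which fragmented RNA is enriched with an antibody against m6A and sequenced. The cells compared were Mettl3 CKO cells with the controls of that line and Mettl14 CKO cells with theirs. From each came RNA bound to chromatin and depleted of ribosomal RNA (caRNA) and polyadenylated RNA (mRNA), with 2 libraries per group and 16 lists in all, and the 16 input samples were not used here. All cells, controls included, were grown with LIF at 1000 U/ml, CHIR99021 at 3 µM and PD0325901 at 1 µM, and an m6A spike-in was added to all RNA before fragmentation, whose use in the peak values is not given in the sources used here. The labels do not say what drives the deletion, whether a line is 1 clone, or how completely the protein was lost. Nothing says that replicates came from separate cultures, so p-values here measure library-to-library spread that could be technical.

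METTL3 and METTL14 are the catalytic and the RNA-binding partner of the nuclear complex that writes m6A on nascent RNA, chiefly at adenosines inside a GGAC-like context. In mature mRNA the mark is best known near stop codons and in 3′ untranslated regions. RNA outside annotated genes arises when a polymerase runs past the cleavage site, when a start site fires in the opposite direction, from enhancers, and from transcripts that the annotation does not hold. Such RNA is often short-lived and stays on chromatin, where METTL3 and METTL14 have been studied as regulators of its stability.

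The lists held 37955 to 45241 peaks on named chromosomes in caRNA and 16537 to 23380 in mRNA. They give no read totals, so depth is unknown and the length of a list is its nearest substitute. All 8 stem cell markers examined, among them Sox2, Esrrb and Klf4, had a gene-body peak in some list, 5 of them in all 16. Of the others, Tdgf1 was marked in 14 lists, Nanog in 13 and Pou5f1 in 12. All 8 fibroblast markers, which would mark feeder cells, also had one in some list, but only Col1a2 in all 16. Col1a1 and Fn1 were marked in 13 lists, and Vim in 8 caRNA and 0 mRNA lists. Acta2 was marked in 8 lists, Col3a1 in 6, Thy1 in 5 and Mmp2 in 2. Peaks record captured RNA, not its level, and the part of other cells in the results was not tested. For the same reason the deleted genes give no check of the labels: the Mettl3 body held a peak in 3 of the 4 Mettl3 CKO lists and 2 of the 4 control lists of that line, and the Mettl14 body in 1 Mettl14 CKO list and 4 control lists.

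Members that summit close to a gene's start can be read against the RefSeq promoter sequences (250 bases before to 50 after each start, GRCm38.p6, the mm10 build). Of the 5980 regions, 83 had their summit with 50 bases on each side inside such a sequence. GGAC stood on the peak's own strand in 44 of these 83 windows (53.0%) and on the opposite strand in 19 (22.9%). Over windows of the same length from 32851 promoters, one strand held it in 31.0%. The longer GGACT stood on the peak strand in 20 windows (24.1%), on the opposite strand in 6 (7.23%), and in 9.68% of promoter windows on one strand. The windows hold only members near a start, every GGACT is also a GGAC, and a match is a string of letters, not a mapped site.

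Whole windows of 300 bases are shown because their regions lay near a start and were in all 16 lists (Rnpc3, Poc1b, Arih2) or in 15 (Sema4b). Each is printed 5′ to 3′ along the peak's strand with GGAC in capitals. Rnpc3 encodes a protein of the minor spliceosome, and its window is chr3:113630100-113630399 on the plus strand, opposite to the gene. Poc1b encodes a centriole protein, and its window is chr10:99106832-99107131 on the minus strand, also opposite to the gene. Arih2, a ubiquitin ligase, has chr9:108653632-108653931 on the minus strand, and Sema4b, a membrane semaphorin, has chr7:80186620-80186919 on the plus strand, both in the sense of the gene.
Rnpc3: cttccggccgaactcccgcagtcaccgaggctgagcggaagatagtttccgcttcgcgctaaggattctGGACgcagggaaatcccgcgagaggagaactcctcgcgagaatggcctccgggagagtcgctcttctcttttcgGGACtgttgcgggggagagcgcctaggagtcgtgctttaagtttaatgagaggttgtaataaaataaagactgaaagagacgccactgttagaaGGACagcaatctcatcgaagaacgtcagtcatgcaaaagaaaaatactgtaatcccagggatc
Poc1b: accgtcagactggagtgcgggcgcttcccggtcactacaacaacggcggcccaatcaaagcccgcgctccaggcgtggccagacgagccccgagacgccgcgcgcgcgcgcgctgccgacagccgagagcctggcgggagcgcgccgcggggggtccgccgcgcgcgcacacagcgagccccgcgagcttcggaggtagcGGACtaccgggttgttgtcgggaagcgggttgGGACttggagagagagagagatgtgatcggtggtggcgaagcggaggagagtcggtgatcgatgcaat
Arih2: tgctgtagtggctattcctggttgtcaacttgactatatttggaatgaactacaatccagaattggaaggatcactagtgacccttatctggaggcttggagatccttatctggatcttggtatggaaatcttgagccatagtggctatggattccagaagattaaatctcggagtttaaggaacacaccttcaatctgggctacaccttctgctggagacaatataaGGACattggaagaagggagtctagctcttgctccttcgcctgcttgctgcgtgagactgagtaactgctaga
Sema4b: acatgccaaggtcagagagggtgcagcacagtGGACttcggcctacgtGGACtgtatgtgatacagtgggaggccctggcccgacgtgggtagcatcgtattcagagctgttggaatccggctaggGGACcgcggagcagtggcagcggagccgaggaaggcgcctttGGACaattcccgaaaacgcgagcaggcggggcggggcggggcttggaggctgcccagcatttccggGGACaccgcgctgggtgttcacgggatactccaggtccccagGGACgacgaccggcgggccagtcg

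The summit stood at base 172 of the Rnpc3 window, 122 bases from the gene, and nearer the other end of the Poc1b window, 184 bases from the gene. The fold of a peak, its enrichment as the deposited list gives it, is a value of its own list. For Rnpc3 it ran over the 16 lists from 6.73 to 15.2 with a median of 11.2. For Poc1b it ran from 4.86 to 12.9 with a median of 8.98, and for Arih2 from 2.75 to 13.0 with a median of 5.16. The Sema4b window held 6 GGAC, and its fold ran from 4.61 to 14.8 in the 15 lists that held it. The list without it was replicate 2 of the Mettl3 CKO mRNA.

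Further windows, the summit with 50 bases on each side, come from regions next to Nvl, an ATPase of ribosome assembly, and Wtap, the adaptor that holds the methyltransferase complex in the nucleus. They are shown because both run opposite to their gene and one has the motif letters and the other does not. The Nvl window is chr1:181144348-181144448 on the plus strand and held a peak in 8 of 8 caRNA and 4 of 8 mRNA lists. The Wtap window is chr17:12992601-12992701 on the plus strand, without GGAC, and held a peak in 6 caRNA lists and no mRNA list.
Nvl: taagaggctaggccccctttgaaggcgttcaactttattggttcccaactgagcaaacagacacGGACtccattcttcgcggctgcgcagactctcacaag
Wtap: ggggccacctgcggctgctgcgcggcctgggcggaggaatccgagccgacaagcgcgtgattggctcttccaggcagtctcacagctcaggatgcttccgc

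Near-gene peaks took a larger share of the caRNA lists than of the mRNA lists. In Mettl3 CKO cells they were 5.62% and 5.35% of the 2 caRNA lists, against 3.72% and 3.83% of the mRNA lists. In Mettl3 control cells they were 5.39% and 5.54% of the caRNA lists, against 4.55% and 4.18% of the mRNA lists. The caRNA lists were higher in both, and the pairs did not overlap. In Mettl14 CKO cells the share was 6.70% and 6.98% in caRNA, against 5.30% and 5.08% in mRNA. In Mettl14 control cells it was 7.96% and 7.92% in caRNA, against 3.89% and 3.97% in mRNA, the widest gap of the 4. The mean difference, caRNA minus mRNA, was 2.12 percentage points (p = 0.00154, exact two-sided permutation of the fraction labels within line and genotype, the smallest value its 1296 arrangements can give, adjusted p = 0.00257 over 10 measures). It was 1.21 points among the 10000 peaks of lowest p-value in each list, which evens out list length. Within 2 kb of a gene it was 0.783 points, and the permutation p stayed at 0.00154 in both cases. The cells of a library were pooled, so that fewer marked cells and fewer marked molecules per cell cannot be told apart.

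The knockout had no common direction on this share. In the Mettl3 line the mRNA lists gave 3.72% and 3.83% in CKO cells, against 4.55% and 4.18% in control cells, and the caRNA lists of CKO and control cells overlapped. In the Mettl14 line the mRNA share was higher in CKO cells, at 5.30% and 5.08% against 3.89% and 3.97% in control cells. The caRNA share was lower in Mettl14 CKO cells, at 6.70% and 6.98% against 7.96% and 7.92% in control cells. The mean knockout minus control difference over the 4 comparisons was -0.10 percentage points (p = 0.676, exact permutation of the genotype labels within fraction and line). The knockout effect differed between the lines by 0.37 points (p = 0.477) and between caRNA and mRNA by -0.87 points (p = 0.0988, exact permutation tests, adjusted p = 0.477 and 0.395 over 4 such tests). The Mettl14 CKO mRNA lists were also the longer, with 23380 and 22654 peaks against 16537 and 17738 in the control lists, and the part of list length in these shares was not tested beyond the setting of equal length given above.

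**Figure D1:**
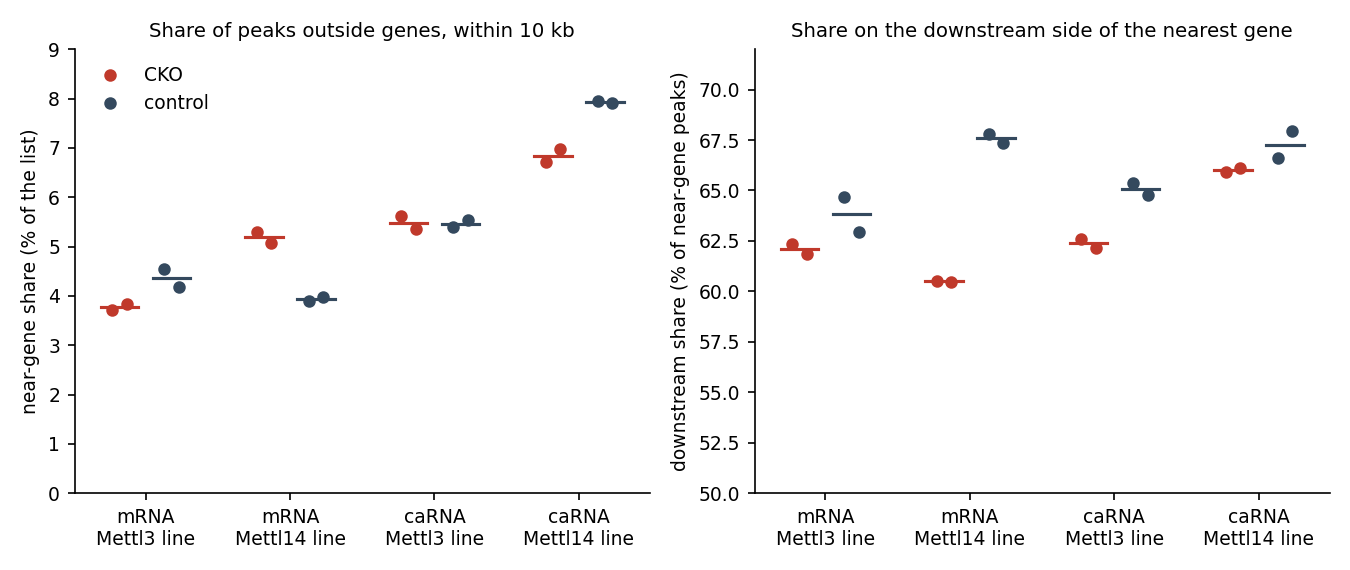
Left, near-gene peaks as a percentage of each list, and right, the percentage of near-gene peaks on the downstream side of the nearest gene along the peak's strand (axis from 50%). Points are the 2 libraries of a group and bars their mean, CKO in red and control in dark blue. The caRNA lists lie above the mRNA lists on the left, and the CKO mean lies below the control mean in each of the 4 comparisons on the right.

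Members were not spread evenly around genes. A member is called downstream when the nearest gene lies behind the summit along the peak's own strand. A strand-blind summit would fall on each side equally often. The downstream share ran from 62.2% to 67.9% in the 8 caRNA lists and from 60.5% to 67.8% in the 8 mRNA lists. Among peaks farther than 10 kb from any gene it ran from 48.2% to 51.3% in caRNA and from 41.8% to 49.7% in mRNA. Near-gene peaks were higher in 16 of 16 lists, with means of 64.3% and 48.4% (p = 3.05e-05, exact sign-flip permutation over the lists, the smallest it can give, adjusted p = 5.09e-05 over 5 measures). Just inside the limit, between 9 and 10 kb, 55.4% of 1213 peaks were downstream, and just outside, between 10 and 11 kb, 56.3% of 915 peaks were. By distance, the share was highest from 1 to 2 kb. There it averaged 70.9% ± 2.89 in CKO and 74.1% ± 2.87 in control caRNA lists, and 73.5% ± 4.69 in CKO and 79.5% ± 1.46 in control mRNA lists (SD, n = 4 each).

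**Figure D2:**
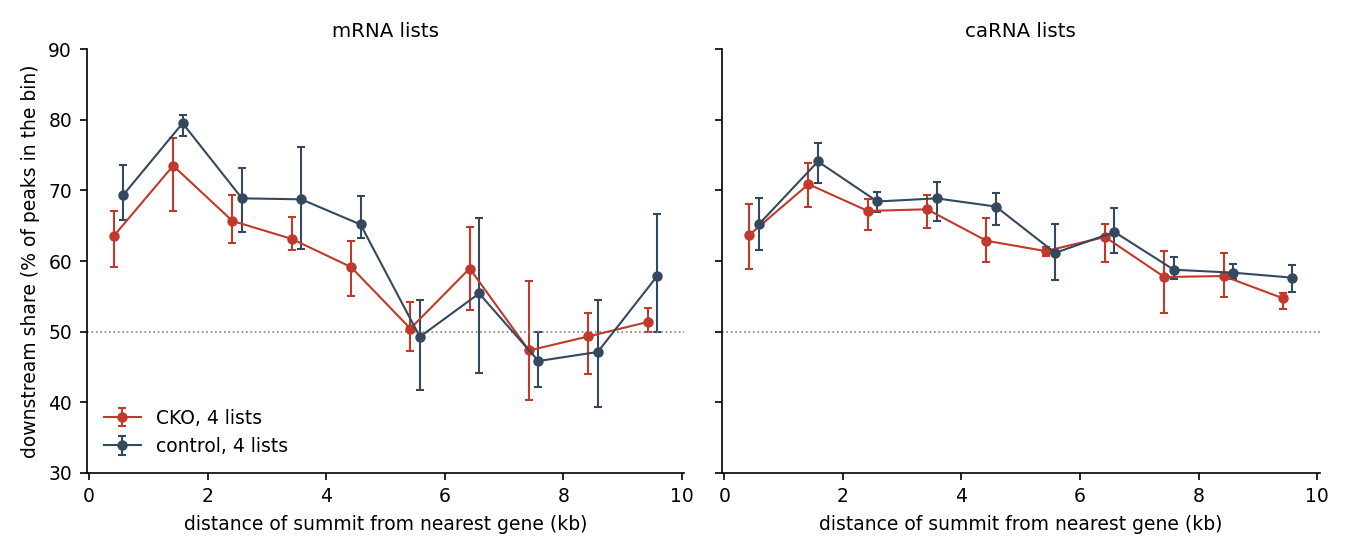
Percentage of near-gene peaks on the downstream side, by 1 kb of distance between summit and nearest gene, in mRNA (left) and caRNA (right). Points are means of 4 lists (2 lines with 2 libraries each), whiskers their range and the dotted line an even split. The share peaks from 1 to 2 kb and is lower beyond 5 kb, and in both fractions the CKO means lie below the control means in each of the first 5 bins.

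The downstream share was lower in the knockout in all 4 comparisons. In mRNA of the Mettl3 line it was 62.4% and 61.8% in CKO cells, against 64.7% and 63.0% in control cells. In mRNA of the Mettl14 line it was 60.5% and 60.5% in CKO cells, against 67.8% and 67.4% in control cells. The CKO lists lay below the control lists in both. In caRNA of the Mettl3 line it was 62.6% and 62.2% in CKO cells, against 65.3% and 64.8% in control cells. In caRNA of the Mettl14 line it was 65.9% and 66.1% in CKO cells, against 66.6% and 67.9% in control cells. No CKO list overlapped its controls in any of the 4 comparisons. The mean difference, knockout minus control, was -3.18 percentage points (p = 0.00154, exact permutation of the genotype labels within fraction and line, the smallest it can give, adjusted p = 0.00514 over 10 measures). The differences ran from -1.23 in Mettl14 caRNA and -1.72 in Mettl3 mRNA to -2.67 in Mettl3 caRNA and -7.09 in Mettl14 mRNA. A difference of the effect between the lines (-1.96 points, p = 0.364) or between caRNA and mRNA (2.45 points, p = 0.293, exact permutation tests) was not detected.

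Among intergenic peaks farther than 10 kb from genes the knockout difference in the downstream share ran both ways. It was -1.69 points in Mettl3 caRNA and -1.66 in Mettl14 caRNA, near the values of near-gene peaks there, and 0.764 in Mettl3 mRNA and 2.31 in Mettl14 mRNA. Its mean was -0.07 points (p = 0.924, exact permutation). The difference of the effects, near-gene minus farther peaks, was -3.11 points (p = 0.0154, exact permutation). It was -9.40 points in Mettl14 mRNA and -2.48 in Mettl3 mRNA, against -0.988 in Mettl3 caRNA and 0.432 in Mettl14 caRNA, so that most of it came from mRNA of the Mettl14 line. These tests on farther peaks were added after the data were seen and are not adjusted. In numbers of peaks, Mettl14 CKO mRNA lists held 750 and 696 downstream members, against 436 and 475 in control lists, and 489 and 455 upstream members, against 207 and 230. Both sides were larger in these longer CKO lists, the upstream side more so. Over the 4 comparisons the log2 number of downstream members differed by 0.05 (p = 0.667) and that of upstream members by 0.25 (p = 0.225, both exact permutations, added after the data were seen). The downstream number had no common direction and was lower in 2 of 4 comparisons. It differed by -0.35 in Mettl14 caRNA and -0.22 in Mettl3 mRNA, against 0.09 in Mettl3 caRNA and 0.67 in Mettl14 mRNA. In Mettl14 caRNA, CKO lists held 1692 and 1818 downstream members, against 2252 and 2223 in control lists. Among the 10000 peaks of lowest p-value per list the knockout difference in the downstream share was -4.85 points with the same p.

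Where the strand of the nearest gene is also known, 4 positions can be separated. That strand was at hand for 28097 of 49980 genes and for 59.5% to 67.6% of members, and the 4 shares of such members sum to 100% in a list, so they are not independent. Peaks beyond the 3′ end on the gene's own strand, the place of read-through RNA and of unannotated 3′ ends, were the most frequent, at 49.0% to 55.5% in caRNA and 45.2% to 52.4% in mRNA lists. Peaks just before the start on the gene's strand made up 16.8% to 19.8% in caRNA and 20.1% to 24.3% in mRNA. Peaks beyond the start on the opposite strand, the place of divergent promoter RNA, made up 15.3% to 19.1% in caRNA and 16.6% to 19.9% in mRNA. Peaks beyond the 3′ end on the opposite strand made up 11.8% to 13.2% in caRNA and 7.99% to 12.6% in mRNA.

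Divergent peaks crowded the start. Over all lists 43.4% of them lay within 1 kb of the gene, as did 38.7% of the sense peaks before the start, 25.7% of the sense peaks beyond the 3′ end and 22.6% of the antisense peaks there. Sense peaks beyond the 3′ end had a median distance of 2024 to 3324 bp in caRNA and 1753 to 2302 bp in mRNA lists. Most of them adjoined genes that were themselves marked on that strand. The gene had a gene-body peak on the summit's strand in the same list for 77.6% to 84.7% of them in caRNA and 61.6% to 67.4% in mRNA. For antisense peaks beyond the 3′ end, where such a gene-body peak is itself antisense, these shares were 23.4% to 32.6% and 6.45% to 16.9%.

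The caRNA lists were richer in sense peaks beyond the 3′ end, by 4.66 percentage points over mRNA, in 4 of 4 strata (p = 0.00154, exact permutation, adjusted p = 0.00257 over 10 measures). They were poorer in sense peaks before the start, by -3.99 points (p = 0.00154, exact permutation), and in divergent peaks, by -2.13 points (p = 0.00309, exact permutation, adjusted p = 0.00441), in 0 of 4 strata higher in both cases. Antisense peaks beyond the 3′ end were 1.46 points higher in caRNA (p = 0.0340, exact permutation, adjusted p = 0.0377), in 3 of 4 strata, a call lost with the replicate number as a block (exact permutation p = 0.0859). The sense excess beyond the 3′ end was not seen close to genes: within 2 kb of a gene the caRNA minus mRNA difference was -0.42 points for sense peaks beyond the 3′ end (p = 0.744, exact permutation) and 0.87 points for divergent peaks (p = 0.275, exact permutation). The median distance from the gene was 276 bp longer in caRNA (p = 0.00463, exact permutation, longer in 4 of 4 strata). The downstream share as a whole was 1.69 points higher in caRNA (p = 0.0664, exact permutation), 4.38 points when gene bodies were those of protein-coding genes alone (p = 0.00154) and -2.13 points within 2 kb (p = 0.0340), so its direction depends on the limit.

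In the knockout the shares shifted from the gene's end to its start. Sense peaks beyond the 3′ end were 47.4% and 45.3% in Mettl3 CKO mRNA, against 49.8% and 48.6% in control mRNA, and 45.2% and 46.2% in Mettl14 CKO mRNA, against 51.5% and 52.4% in control mRNA. In caRNA they were 49.0% and 49.0% in Mettl3 CKO cells, against 54.6% and 53.5% in control cells, and 53.7% and 54.1% in Mettl14 CKO cells, against 54.2% and 55.5% in control cells. CKO lists were below their controls in all 4 comparisons, narrowly in Mettl14 caRNA. The mean difference was -3.77 percentage points (p = 0.00154, exact permutation, adjusted p = 0.00514), and -6.80 points within 2 kb. Sense peaks before the start were higher by 1.62 points in 4 of 4 comparisons (p = 0.00154, exact permutation, adjusted p = 0.00514), and by 3.15 points within 2 kb (p = 0.0139, exact permutation). Divergent peaks were higher by 1.40 points in 4 of 4 (p = 0.0170, exact permutation, adjusted p = 0.0424). That last call was lost among the 10000 peaks of lowest p-value per list, at 0.03 points (exact permutation p = 0.940), and with protein-coding gene bodies alone (0.73 points, exact permutation p = 0.0972). It was also lost without Mettl14 CKO mRNA replicate 1 (1.23 points) or without Mettl14 control mRNA replicate 2 (1.15 points), each with an exact permutation p of 0.0540. Antisense peaks beyond the 3′ end differed by 0.75 points (p = 0.253, exact permutation).

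**Figure D3:**
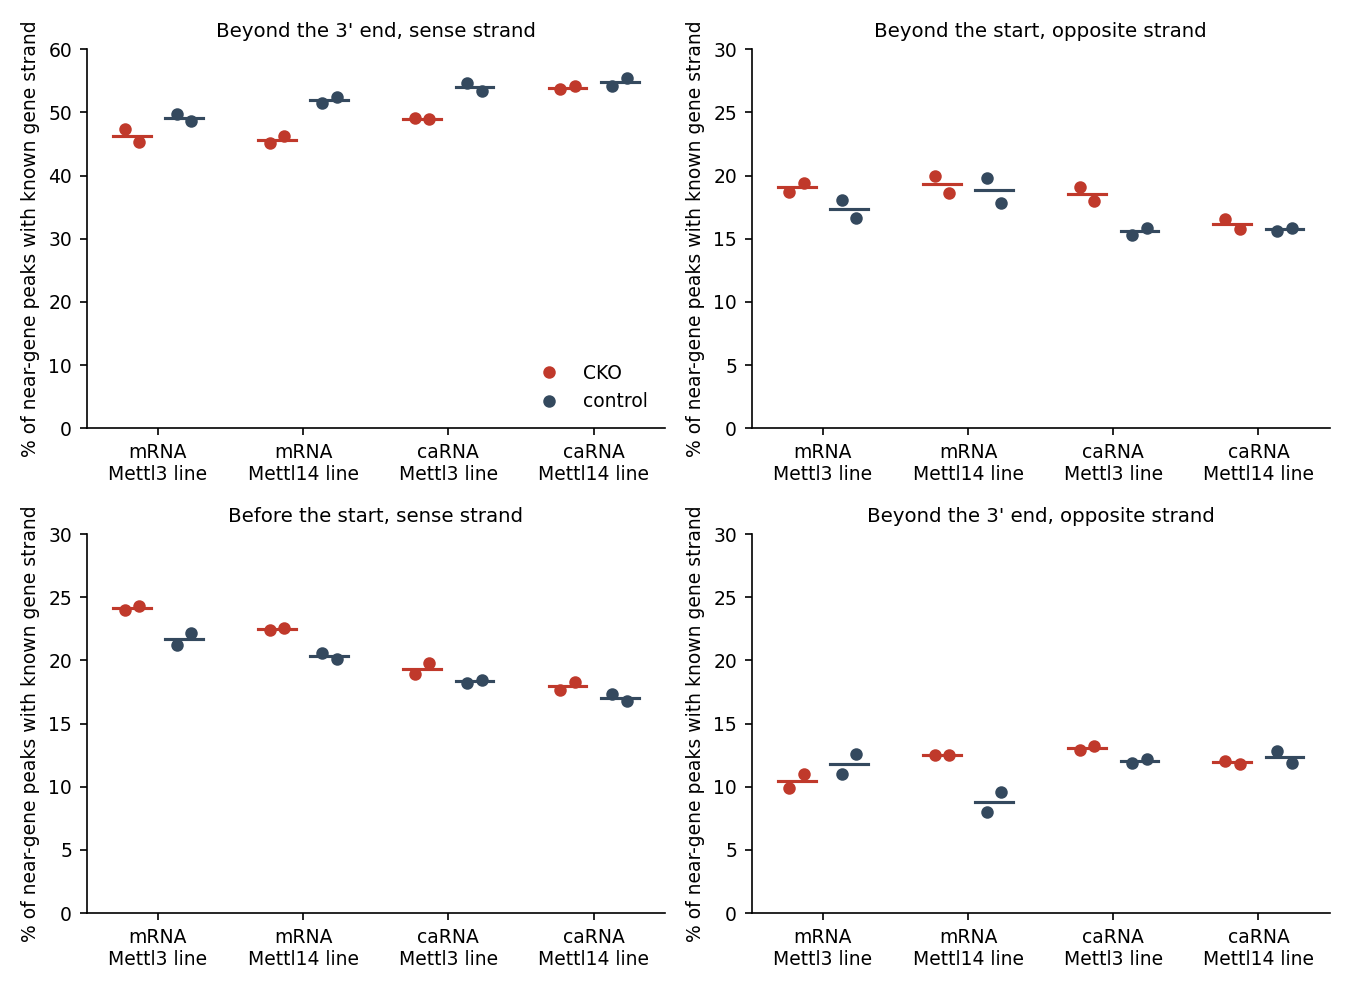
Position and strand of near-gene peaks relative to the nearest gene, as a percentage of those whose gene strand is known; the upper left panel runs to 60% and the others to 30%. Points are the 2 libraries of a group and bars their mean, CKO in red left of control in dark blue. CKO lists lie below their controls for sense peaks beyond the 3′ end and above them for sense peaks before the start in all 4 comparisons.

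As peaks, the members were narrower than those in genes and wider than intergenic peaks farther away. Their median width was 226 to 290 bp, against 240 to 318 bp in gene bodies, in caRNA, and 216 to 262 bp, against 252 to 320 bp, in mRNA. They were narrower in 16 of 16 lists, by a mean of -38.2 bp (p = 3.05e-05, exact sign-flip permutation). Against peaks farther than 10 kb from genes they were wider in 16 of 16 lists, with list medians averaging 247 and 211 bp (p = 3.05e-05, exact sign-flip permutation). Their median within-list fold percentile averaged 54.2 over the lists, against 52.4 for those farther peaks (higher in 13 of 16 lists, p = 0.000366, exact sign-flip permutation). Their strength depended on the fraction. Ranked by fold within its own list, the median member stood 10.1 percentiles above the median gene-body peak in mRNA (8 of 8 lists, p = 0.00781, exact sign-flip permutation, the smallest it can give). In caRNA it stood -1.14 percentiles from it (higher in 2 of 8 lists, p = 0.375, exact sign-flip permutation). The median percentile of members was 10.1 lower in caRNA than in mRNA (exact permutation p = 0.00154). Per list, members stood at a median percentile of 45.5 to 52.9 in caRNA and 53.1 to 63.3 in mRNA.

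The nearest gene was protein-coding for 62.3% of members, a long noncoding RNA for 16.6% and a pseudogene for 16.5%. Members next to protein-coding genes were downstream in 70.0%, those next to long noncoding RNA genes in 58.8% and those next to pseudogenes in 51.9%. Of the 3915 genes, 2749 (70.2%) had 1 region and 97 had 5 or more. Merged regions were mostly seen in chromatin-associated RNA: 4271 of the 5980 (71.4%) were in caRNA lists alone, against 56.6% of all 80081 merged regions, and 417 (6.97%) were in mRNA lists alone, against 7.12%. Only 140 regions (2.34%) were in all 16 lists, against 8.39% of all regions. Of these 140, 102 (72.9%) were downstream, against 63.6% of all member regions. On the autosomes and X, members were 5.95% to 10.3% of merged regions, and on Y they were 24 of 93.

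The strongest members held by every list were often near zinc finger genes. Of the 10 regions with the highest lowest within-list percentile, 5 were downstream of genes of 1 zinc finger paralog cluster on distal chromosome 2: Zfp973, Zfp968-ps, Gm14288, Zfp968 and Zfp966. The cluster had 139 member regions, 2.32% of the total, and 11 of the 140 in all 16 lists. How reads with several matches were treated is not given in the sources used here, so the positions of these regions among paralogs are uncertain. The leading region lay 1988 bp beyond Zfp973, on its strand, at chr2:176682935-176686379, with folds of 10.2 to 21.2 and a within-list percentile of at least 92.7. It joined peaks over 3445 bp, and its distance is that of its highest-ranked summit. A region's fold and percentile in a list are the highest among its peaks there, which favours wide regions in this ranking. Next to Zfp966, at chr2:175915620-175916549, the fold ran from 7.65 to 25.1, and next to Zfp968, at chr2:175384765-175388202, from 8.55 to 22.7. Outside that cluster, a region 3472 bp before Il20, a cytokine gene, at chr1:130914628-130914853, had folds of 7.88 to 18.5.

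Zinc finger genes as a list were often next to members. Of 394 genes named Zfp, 113 (28.7%) had at least 1 member region, against 11.6% of 21900 protein-coding genes. Their 227 regions included 157 sense peaks beyond the 3′ end, 6 divergent peaks and 13 regions in all 16 lists. No test of this share was made.

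Among pluripotency genes, 15 of 23 had members, 27 regions in all, 21 of them downstream and 19 in caRNA lists alone. Fgf4, the growth factor that primes these cells for differentiation, had a region 4940 bp beyond its 3′ end (chr7:144870045-144870448) in 13 lists. In mRNA its fold was 7.32 and 7.22 in Mettl3 CKO, against 7.29 and 11.2 in Mettl3 control lists, and in the Mettl14 line it was listed once, at 5.37 in CKO replicate 2. In caRNA it was 6.62 and 7.08 in Mettl3 CKO, against 6.80 and 7.89 in control, and 4.84 and 5.04 in Mettl14 CKO, against 5.15 and 5.31 in control lists. Every caRNA list thus held it, in both genotypes.

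Klf2, a transcription factor of naive pluripotency, had a divergent region 495 bp beyond its start (chr8:72318440-72318656) in 12 lists. Its fold in caRNA was 14.4 and 10.96 in Mettl3 CKO, against 11.8 and 11.8 in control lists, and 5.85 and 4.82 in Mettl14 CKO, against 4.47 and 4.32 in control lists. Dppa2, a chromatin factor of early embryos, had one 6236 bp away (chr16:48303895-48304204) in 15 lists. Zfp42, a marker of undifferentiated cells also known as Rex1, had 3 sense regions beyond its 3′ end in caRNA. The one at 5098 bp (chr8:43289695-43290281) was in neither Mettl3 CKO list, against folds of 6.84 and 2.31 in the control lists, and was at 2.75 and 3.04 in Mettl14 CKO, against 8.52 and 6.27 in Mettl14 control lists. A further region 9527 bp before Zfp42 was in the 4 mRNA lists of the Mettl3 line alone, with folds of 15.1 and 10.7 in CKO and 9.43 and 3.81 in control. Nanog, a core pluripotency factor, had a region 870 bp before its start in the Mettl14 CKO mRNA lists alone, with folds of 5.11 and 4.83.

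Of 20 genes of the m6A machinery, 7 had members, 17 regions in all. Mettl5, the methyltransferase of 18S ribosomal RNA, had a divergent region 1795 bp beyond its start (chr2:69887976-69888626) in all 16 lists. Its fold in mRNA was 16.3 and 14.3 in Mettl3 CKO, against 12.7 and 13.3 in control lists, and 15.96 and 16.4 in Mettl14 CKO, against 12.05 and 8.73 in control lists. In caRNA it was 6.37 and 6.19 in Mettl3 CKO, against 3.96 and 3.82 in control, and 7.73 and 6.33 in Mettl14 CKO, against 2.52 and 4.53 in control lists. The CKO values were above the control values in all 4 comparisons, though folds of different lists are not on 1 scale and were not tested.

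Ythdf2, a cytoplasmic reader that promotes decay of m6A RNA, had a sense region 3363 bp beyond its 3′ end (chr4:132180820-132181727) in 10 lists. In caRNA it was listed in 1 Mettl3 CKO library, at 2.97, against 8.76 and 10.8 in the control lists, and at 6.74 and 7.79 in Mettl14 CKO, against 11.8 and 12.1 in control lists. In mRNA it was in neither Mettl3 CKO list, against 4.15 and 4.32 in the control lists. The Mettl14 mRNA lists went the other way: CKO replicate 1 alone held it, at 5.24, and neither control list did. Alkbh5, an m6A demethylase, had a divergent region 498 bp beyond its start in 7 caRNA lists and no mRNA list, and Wtap had a sense region 364 bp before its start in 11 lists. Igf2bp1, which binds and stabilises m6A RNA, had 7 regions, the most widely held 4289 bp from the gene in 8 of 8 caRNA and 4 of 8 mRNA lists.

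Replication-dependent histone genes, whose mRNAs end in a stem-loop and lack poly(A), had members at 8 of 64 genes and 12 regions, 8 of them sense peaks beyond the 3′ end. Of these 12, 1 region was in caRNA lists alone, while the region next to H2ac18 was in 6 mRNA and 6 caRNA lists and that next to H2ac19 in 7 mRNA and 6 caRNA lists. H4c17 had 5 regions up to 7655 bp beyond its 3′ end. The one at 269 bp (chr13:21811943-21812902) had mRNA folds of 10.6 and 8.81 in Mettl3 CKO, against 12.4 and 14.0 in control lists, and of 13.3 and 15.1 in Mettl14 CKO, against no peak and 5.53 in control lists. Hox genes, which set body pattern and are largely silent in stem cells, had members at 7 of 39. Next to Hoxa13, 25 bp beyond its 3′ end (chr6:52258646-52259191), mRNA folds were 18.7 and 17.9 in Mettl3 CKO, against 13.3 and 12.4 in control lists, and 6.76 and 7.64 in Mettl14 CKO, against no peak in both control lists. Cytosolic ribosomal protein genes had members at 13 of 85 genes, microRNA genes at 37 of 1228, small nuclear RNA genes at 35 of 1004 and small nucleolar RNA genes at 35 of 1340.

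**Figure D4:**
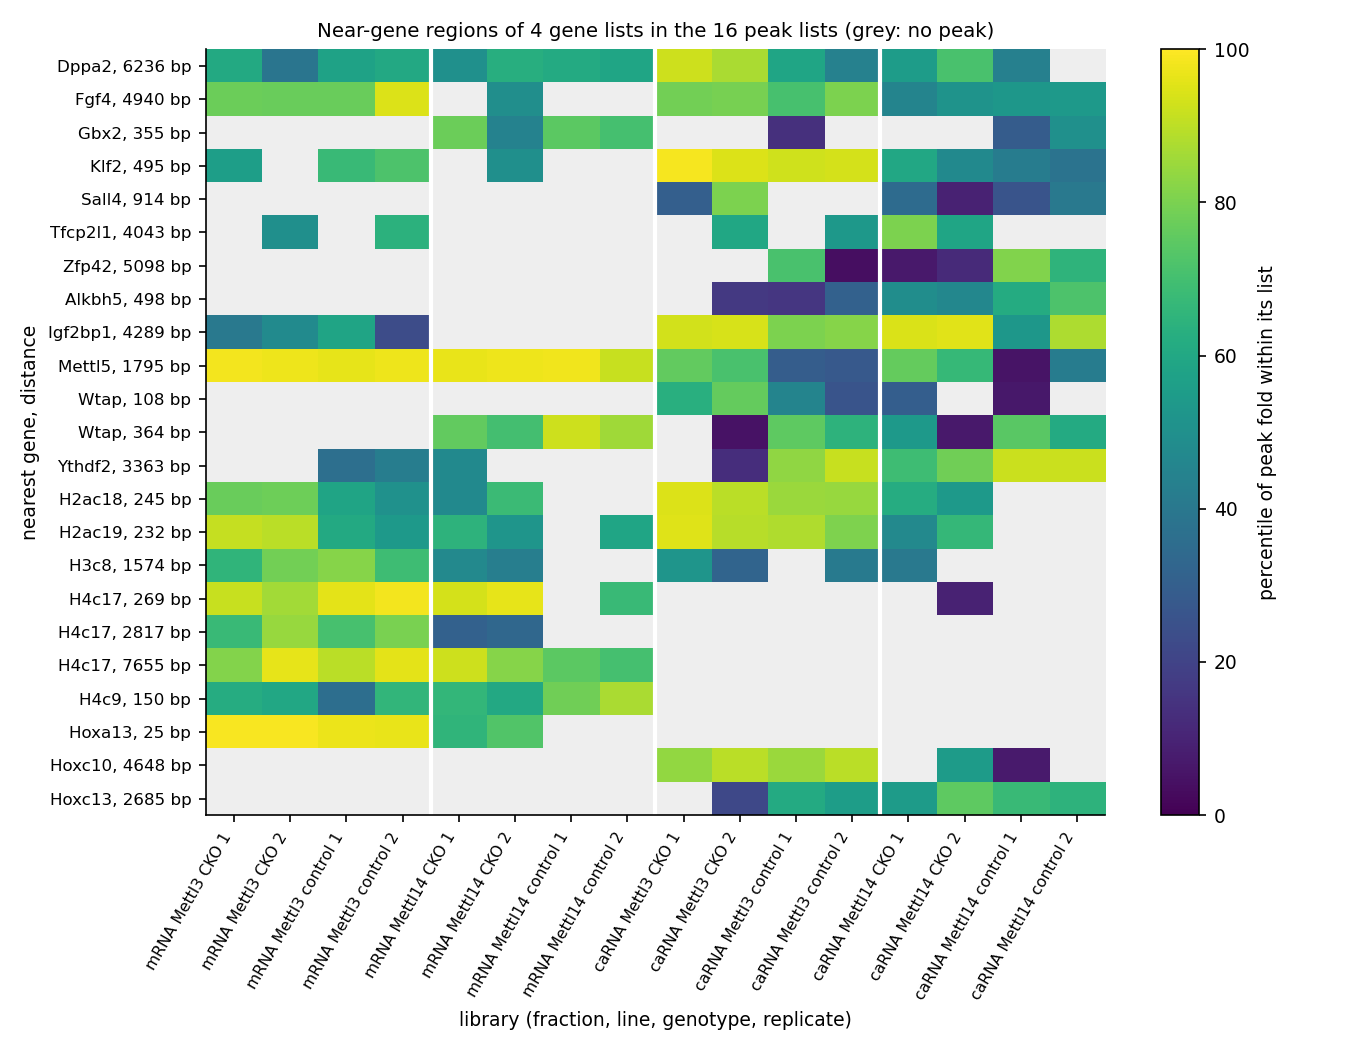
Near-gene regions held by at least 6 lists next to genes of the pluripotency, m6A machinery, histone and Hox lists, 1 row per region, named by gene and distance. Columns are the 16 libraries, CKO left of control within each fraction and line, and colour is the percentile of the peak's fold within its own list, grey where the list holds no peak. Mettl5 is filled in all 16 columns, Hoxa13 and most H4c17 cells are filled in mRNA alone, and Alkbh5 in caRNA alone.

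To compare single regions between genotypes, peaks of its 4 libraries that overlapped on the same strand were joined. A region was lost when both control lists and no CKO list held it, and gained when both CKO lists and no control list did. With 2 libraries a group, these are counts with no test. In mRNA of the Mettl3 line 117 of 726 member regions (16.1%) were lost, where 10.2% of all regions were, and 69 of 652 (10.6%) were gained, where 9.95% of all were. In mRNA of the Mettl14 line 15 of 511 (2.94%) were lost, where 6.33% of all were, and 359 of 970 (37.0%) were gained, where 25.6% of all were. The line thus showed more gain than loss in mRNA, in members and in all regions, and its CKO lists were the longer.

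In caRNA of the Mettl3 line 398 of 1604 member regions (24.8%) were lost, where 16.4% of all were, and 418 of 1736 (24.1%) were gained, where 16.9% of all were. In caRNA of the Mettl14 line 628 of 2609 (24.1%) were lost, where 15.7% of all were, and 206 of 1972 (10.4%) were gained, where 9.16% of all were. Members turned over more than the background in 5 of the 8 counts, lay near it in the gains of Mettl3 mRNA and Mettl14 caRNA, and below it in the losses of Mettl14 mRNA. Weak peaks changed most. Among regions below the median rank of fold, 41.9% of 1276 member regions were lost in Mettl14 caRNA, where 29.7% of all were, and above it 6.98% of 1333, where 4.48% of all were. Among the 10000 peaks of lowest p-value per list the counts moved: the Mettl14 mRNA gain was 13.6% of members, where 12.3% of all were, and its loss 12.7%, where 10.1% of all were. The Mettl3 caRNA loss was then 29.9%, where 30.4% of all were, and the Mettl14 caRNA gain, near the background above, was 22.8%, where 14.7% of all were.

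By position in Mettl3 caRNA, 30.8% of 214 divergent regions and 20.1% of 558 sense regions beyond the 3′ end were gained, where 16.9% of all were. Losses there were 17.8% of 157 divergent regions, 28.4% of 613 sense regions beyond the 3′ end and 30.4% of the antisense regions there, where 16.4% of all were. In Mettl3 mRNA 20.2% of 84 divergent regions and 5.31% of 207 sense regions beyond the 3′ end were gained, where 9.95% of all were. In Mettl14 mRNA gains were 33.0% of 109 divergent regions and 33.0% of 273 sense regions beyond the 3′ end. They were 42.1% of 126 sense regions before the start and 49.3% of 75 antisense regions beyond the 3′ end, where 25.6% of all were gained. In Mettl14 caRNA losses were 20.6% of 267 divergent regions, 24.6% of 935 sense and 30.4% of 204 antisense regions beyond the 3′ end. Of all regions 15.7% were lost there. Gains there were 10.8% of 212 divergent regions and 9.94% of 694 sense regions beyond the 3′ end, where 9.16% of all were. Losses of these 2 kinds in Mettl3 mRNA were 16.1% of 87 and 14.8% of 230, where 10.2% of all were. In Mettl14 mRNA they were 3.23% of 62 and 2.42% of 165, where 6.33% of all were.

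**Figure D5:**
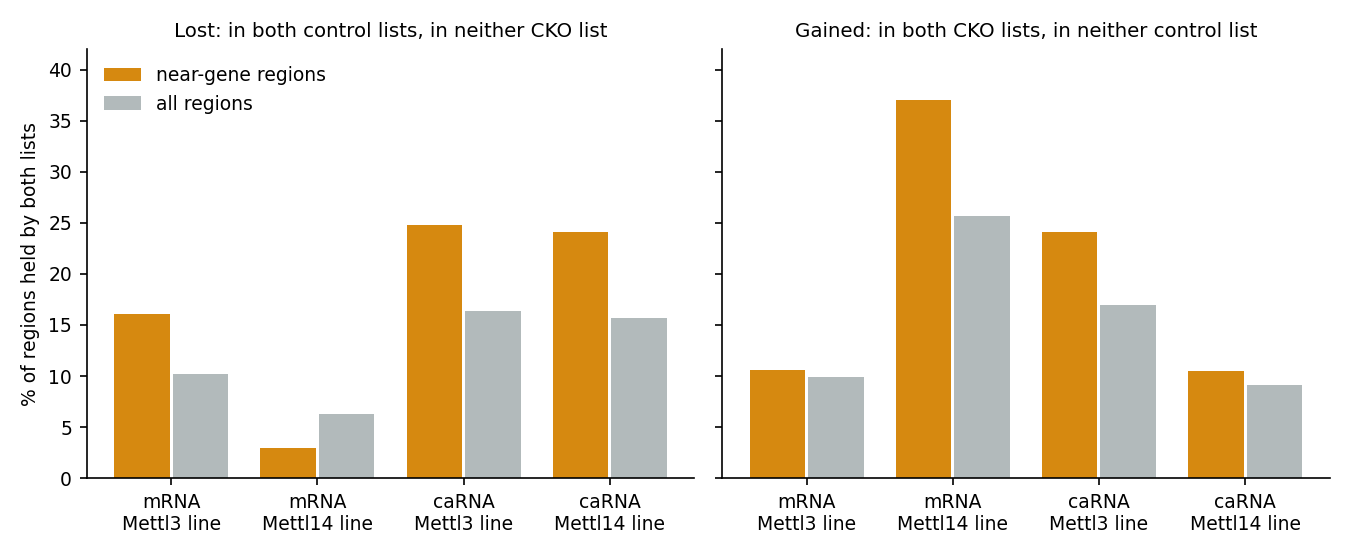
Percentage of regions lost (left, of those in both control lists) and gained (right, of those in both CKO lists), for near-gene regions (orange) and for all regions (grey) of each comparison; bars start at 0 and carry no error. Near-gene bars are higher than the grey bars except for losses in Mettl14 mRNA.

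The strongest lost and gained regions, ranked by the lower fold of the 2 lists that held them, sat on both sides of genes. In Mettl3 caRNA the strongest losses included Platr20, a noncoding RNA of stem cells (chr11:51186527-51186996, sense, 3092 bp beyond its 3′ end), with no peak in CKO lists and folds of 12.001 and 10.7 in control lists. They also included Ccsap, a centriole and spindle protein (chr8:123839477-123839746), with control folds of 9.24 and 9.58. Cd80, a costimulatory ligand of T cells (chr16:38495885-38496085, 43 bp beyond its 3′ end), had control folds of 8.91 and 8.12. In Mettl14 caRNA the losses included Dapk3, a death-associated kinase (chr10:81192831-81193422, 35 bp beyond its 3′ end), with control folds of 8.17 and 7.85. Ubqln4, a ubiquitin shuttle (chr3:88569873-88570282, 195 bp beyond its 3′ end), had control folds of 7.83 and 8.49. All of these lay beyond the 3′ end on the gene's strand, whereas the losses next to Pla2g1b, a phospholipase, and Fam32a lay beyond the 3′ end on the opposite strand.

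The strongest gain in Mettl14 caRNA lay 3103 bp before Psmb11, a thymic proteasome subunit (chr14:54622047-54622344), with folds of 8.54 and 8.55 in CKO lists and no peak in control lists. Platr6, another noncoding RNA of stem cells, had an antisense region 1254 bp beyond its 3′ end with CKO folds of 6.27 and 6.85. In Mettl3 mRNA, gains included a sense region 238 bp before Nova2, a neuronal splicing factor (chr7:18925553-18925731), with CKO folds of 7.06 and 8.04. In Mettl14 mRNA they included a sense region 2367 bp beyond Tcf20, a transcriptional coregulator (chr15:82805946-82806270), with CKO folds of 10.9 and 9.43. Strong losses in mRNA included Setmar, a lysine methyltransferase (chr6:108081409-108081968, antisense), with Mettl3 control folds of 8.50 and 7.95, and Zfp933 (chr4:147822563-147822739, sense), with Mettl14 control folds of 6.78 and 7.01.

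Other strong regions were in all 4 lists of a comparison. In Mettl3 caRNA the region 3210 bp beyond H6pd, an enzyme of the endoplasmic reticulum, had folds of 22.0 and 24.9 in CKO lists, against 22.6 and 24.9 in control lists. In Mettl14 caRNA the region 888 bp beyond Tnrc6c, a silencing factor of the microRNA pathway, had folds of 20.1 and 18.4 in CKO lists, against 19.7 and 22.7 in control lists. The region 500 bp before the hairpin of Mir345 had 19.6 and 16.8 in CKO lists, against 17.95 and 19.2 in control lists. In Mettl3 mRNA the region 155 bp from Gap43, a neuronal growth protein, had 21.2 and 23.4 in CKO lists, against 16.9 and 14.1 in control lists. Strong members held by both genotypes were thus found in caRNA and in mRNA.

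A region could be lost in both lines only where both control lists of each line held it. Over regions merged across all 16 lists, 972 member regions did so in caRNA. Of these, 261 were lost in the Mettl3 line and 44 in the Mettl14 line, and 20 were lost in both, 7.66% and 45.5% of these losses. Over all regions that met the condition, the shared losses were 13.3% and 48.4% of those of the Mettl3 and Mettl14 lines. The lines have their own controls. For gains in caRNA, 829 member regions were in both CKO lists of each line. Of these, 60 were gained in the Mettl3 line and 106 in the Mettl14 line, and 21 in both, 35% and 19.8%, where 37.2% and 19.3% of the gains over all regions were shared. In mRNA 346 member regions could be gained in both lines. Of these, 11 were gained in the Mettl3 line and 104 in the Mettl14 line, and 9 in both, 81.8% and 8.65%, where 61.9% and 5.17% over all regions were. No sharing of mRNA losses could be seen, since 0 of the 277 member regions that could be lost in both lines were lost in the Mettl14 line. Among the shared losses, the strongest by lowest fold lay 6435 bp beyond Mrps5, a mitochondrial ribosome protein (chr2:127610268-127610569), with control folds of 6.78 and 7.77 in the Mettl3 line and 7.22 and 7.97 in the Mettl14 line. Of the 6 strongest shared gains in mRNA, 5 were divergent. The first of them lay 1030 bp beyond the start of Pi4k2a, a phosphoinositide kinase (chr19:42089011-42089215), with CKO folds of 6.56 and 5.85 in the Mettl3 line and 7.09 and 7.75 in the Mettl14 line. The exception lay 1411 bp before Mtf2, a Polycomb protein (chr5:108063976-108064470), on the gene's strand.

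By nearest gene, the lists gave few calls. In Mettl14 caRNA 4 of 13 pluripotency regions in both control lists were lost, next to Dppa2, Esrrb, Gbx2 and Zfp42, where 15.7% of all regions were. The lost Dppa2 and Zfp42 regions, 428 and 382 bp from the gene, were not those described above. In Mettl3 caRNA 3 of 7 pluripotency regions were gained, next to Dppa4, Esrrb and Sall4, where 16.9% of all were. The Esrrb regions of the 2 lines lay at different distances, 8666 bp in this line and 3906 bp in the other. The other pluripotency losses were 0 of 4 in Mettl3 mRNA, 0 of 2 in Mettl14 mRNA and 1 of 4 in Mettl3 caRNA. Of all regions 10.2%, 6.33% and 16.4% were lost there, in that order. The other gains were 0 of 3 in Mettl3 mRNA, 1 of 3 in Mettl14 mRNA and 1 of 8 in Mettl14 caRNA. Of all regions 9.95%, 25.6% and 9.16% were gained there, in that order. In Mettl14 mRNA 5 of 10 histone regions were gained, next to H2ac18, H3c14, H3c15, H3c8 and H4c17, where 25.6% of all were. Of Zfp regions 28 of 98 were lost in Mettl3 caRNA, where 16.4% of all were, and 20 of 136 in Mettl14 caRNA, where 15.7% were. Of all member regions 24.8% and 24.1% were lost there. In mRNA 8 of 49 Zfp regions were lost in the Mettl3 line (10.2% of all) and 1 of 44 in the Mettl14 line (6.33%). Zfp gains were 13 of 82 in Mettl3 caRNA (16.9% of all) and 9 of 122 in Mettl14 caRNA (9.16%). In mRNA they were 2 of 42 in the Mettl3 line (9.95%) and 14 of 65 in the Mettl14 line (25.6%). Of m6A machinery regions 1 of 8 was lost in Mettl3 caRNA and 2 of 8 in Mettl14 caRNA.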

How the data were processed

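Each of the 16 immunoprecipitated libraries had 1 deposited peak list, with strand and without pooling of replicates. Per the submitters' processing notes, mm10, CASAVA, Trimmomatic 0.38, HISAT2 2.1.0 and SAMtools 1.9 were used, while the labels name no peak caller, no settings and no treatment of reads with several matches. The fold enrichment of each peak is the authors' ratio, deposited per list and used only to rank or describe peaks. The −log10 p and −log10 q of each peak were deposited by the authors and used only as thresholds. The deposited score, a multiple of the authors' q-value column, and the deposited summit offset came with each peak, and only the offset was used.

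Summits were assigned to 49980 RefSeq genes of GRCm38.p6, the mm10 build, with Python 3.11.15, numpy 2.4.6 and pandas 2.3.3. No genome or exon table was used. Contrasts compared 1 value per library by exact two-sided permutation of labels within strata, with Benjamini-Hochberg adjustment over 10 measures. Regions joined peaks that overlapped by at least 1 bp on the same strand, and every summit had to meet the rule. Named regions were, per comparison, the 6 lost and 6 gained regions with the highest lower fold and the 6 held by all 4 lists with the highest lowest fold, plus the 10 strongest in all 16 lists. Others came from gene lists and the printed windows. The members, lists and rules were chosen with earlier results of these data known, and positions by gene strand, distance, width and rank measures were added after the data were seen. On simulated lists 0 of 2000 summits were misplaced, and a planted drop of 5 points in the downstream share was called in 20 of 20 runs. The near-gene share, left unchanged in the same 20 runs, was called in 0. No run left the downstream share unchanged, so its rate of false calls was not measured. The simulated lists differed only by counting spread, and the planted drop was larger than the observed mean of -3.18 points. Peak lists hold no read totals, so depth is unknown and intervals from counts could not be made. Alternatives were other limits, gene sets, thresholds, list lengths, overlaps, a replicate block and leaving out each library.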

Additional observations from a re-analysis of the deposited data

Results flagged for a closer look

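The knockout effect on the near-gene share of peaks ran in opposite directions in pairs of comparisons. In mRNA it was -0.59 percentage points in the Mettl3 line and 1.26 points in the Mettl14 line, a difference of -1.85 points (p = 0.0556, exact permutation, the smallest its 36 arrangements can give). Within the Mettl14 line it was 1.26 points in mRNA and -1.10 points in caRNA, a difference of 2.35 points (p = 0.0556, exact permutation, again the smallest possible). In both pairs every CKO library lay on one side of its controls in one comparison and on the other side in the other. Both pairs were picked by this pattern, and with 2 libraries per group the pattern itself forces the smallest possible p. The p-values of these pairs were thus fixed by the choice and are no test of the difference.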

How the results depend on the processing

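Of 168 values under other settings, 140 were counted as unchanged. For differences with a test this meant the same direction and the same side of the threshold. For percentages of lost and gained regions and counts of named regions, which have no test, it meant staying within a fixed ratio of the value given above. The knockout difference in the downstream share stayed between -4.85 and -2.17 points and the caRNA minus mRNA difference in the near-gene share between 0.783 and 2.12 points, called under each setting run. Other results moved, and the cause was not tested. The caRNA minus mRNA difference in the downstream share was -0.53 at a limit of 5 kb, -2.13 at 2 kb and -0.14 with 10000 peaks per list. It was 4.38 with protein-coding gene bodies, 2.12 with whole peaks outside genes and 3.68 with protein-coding nearest genes. At 2 kb that difference was -0.42 for sense peaks beyond the 3′ end and 0.87 for divergent peaks, which gave -1.71 with 10000 peaks. The knockout difference in divergent peaks was 0.73 with protein-coding gene bodies and 0.031 with 10000 peaks, and that in the near-gene share was 0.185 with 10000 peaks. The difference of the near-gene effect between the lines was -0.068 at 2 kb and -0.45 with 10000 peaks, and between fractions it was -0.59 at 2 kb, -0.96 with protein-coding bodies, -0.71 with protein-coding nearest genes and 0.38 with 10000 peaks. For the downstream effect it was 0.60 at 2 kb and 3.99 with 10000 peaks between the lines, and -1.24 with 10000 peaks between fractions. With 10000 peaks, 12.7% of member regions were lost and 13.6% gained in Mettl14 mRNA, 36.8% gained in Mettl3 caRNA and 22.8% in Mettl14 caRNA, where of all regions 10.1%, 12.3%, 24.0% and 14.7% were. With summits within 100 nt 8.88% were lost in Mettl14 mRNA, where 12.4% of all were. Of 48 named lost and gained regions, 26 kept their call with protein-coding bodies and 19 with 10000 peaks.

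Leaving out 1 library gave 1.47 to 1.901 points for the downstream share, caRNA minus mRNA, called without Mettl3 control mRNA replicate 1 (1.901) or Mettl14 control caRNA replicate 1 (1.86), and 1.15 to 1.65 for divergent peaks in the knockout. With the partner alone deciding, losses were 22.0% to 28.0% in Mettl3 mRNA and 3.85% to 5.45% in Mettl14 mRNA, where of all regions 14.6% to 16.3% and 7.28% to 10.5% were. Gains were 15.2% to 18.5% in Mettl3 mRNA, 29.6% to 38.0% in Mettl3 caRNA and 13.8% to 16.5% in Mettl14 caRNA, where of all regions 14.4% to 17.1%, 22.0% to 27.4% and 12.5% to 15.8% were. The replicate block, for which the labels give no shared batch, left the downstream difference at -3.18 (p = 0.00781) and the near-gene difference between fractions at 2.12 (p = 0.00781, both exact permutations, the smallest possible). It ended the call of antisense peaks beyond the 3′ end between fractions (p = 0.0859, exact permutation). It ended no other call of the text for which it was run. Tests at other limits and those on farther peaks were not run with it. Same-numbered libraries deviated together in 4 of 4 strata for the downstream share and in 0 of 4 for the near-gene share. List length stands in for depth, which the lists do not give.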
